A study of Arabidopsis thaliana with 12 samples.

Results

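TBL34 (AT2G38320) and TBL26 (AT4G01080) are 2 genes of the TRICHOME BIREFRINGENCE-LIKE (TBL) family of Arabidopsis thaliana. They were taken as the probe sets whose single annotated gene is one or the other: 2 probe sets, 1 for each gene, of 13513 with a single gene and 22746 in all on the Affymetrix ATH1 array. In anthers of the ms35 mutant TBL34 lay lower than in wild type and TBL26 higher, and in neither gene did the 6 ms35 arrays overlap with the 6 wild-type arrays. Both genes were chosen by their signal on these same arrays, with the differences between lines and stages already known. Their values are therefore given as a description, without a test, and nothing is drawn from their difference between the lines.

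Many TBL proteins are enzymes of the Golgi apparatus that attach acetyl groups to the polysaccharides of the plant cell wall. Each of these acts on particular polymers. TBL34 and its close relative TBL35 are known in Arabidopsis as xylan O-acetyltransferases: xylan is the main hemicellulose of secondary walls, and acetyl groups on its backbone shape how it binds cellulose. TBL26 belongs to the mannan O-acetyltransferases, with TBL23, TBL24 and TBL25. In anthers a secondary wall thickening forms in the endothecium, the cell layer whose bands help the anther to open, and MYB26, the gene affected in ms35, is needed for it.

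The samples were RNA from anthers with their filaments, on 12 arrays in 6 groups of 2. The wild-type control (stock N64) is named Glabra in its source label and Ler in its titles, and the ms35 mutant is labelled as a knockout in the Ler-0 background, so a difference between the groups is one between these lines. Each line had 2 arrays at each of 3 labelled stages, here called PMI (pollen mitosis I), bicellular, and PMII (pollen mitosis II). All plants grew at 22 °C with 22 h of light and 2 h of dark. The labels number the replicates without naming separate plants, so the spread between them may be technical. Values are signal per probe set on a linear scale, and a signal under 25.5, the 40th percentile of all values, is called low here. No probe set carried the name MYB26, so the affected gene was not analysed here. Markers of late pollen had their highest signal in the arrays labelled PMI, so the stage names are used as labels only. The 3' over 5' ratio of the GAPDH control probe sets, which rises as RNA degrades, lay between 1.29 and 2.86, with the largest values in wild type PMII replicate 2 (2.86) and ms35 bicellular replicate 2 (2.37). The number of arrays limits the precision.

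TBL34, the xylan acetyltransferase, had its highest signal in wild-type anthers labelled bicellular, at 73.4 in replicate 1 and 66.9 in replicate 2. In wild type it was 31.5 and 21.3 at PMI and 24.2 and 31.3 at PMII. These 2 wild-type stages overlapped with each other, and both lay below the bicellular arrays. In ms35 the signal was 12.7 and 20.9 at PMI, 6.67 and 15.2 at bicellular and 7.93 and 0.499 at PMII. The ms35 groups next to each other in level overlapped, so no bicellular peak was seen there. All 6 ms35 arrays lay under the low-signal limit, while 4 of the 6 wild-type arrays exceeded it. TBL34 therefore entered the set of tested probe sets only through its wild-type arrays.

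Mean TBL34 signal in the bicellular arrays was 70.2 ± 4.60 for wild type and 11.0 ± 6.06 for ms35 (SD, n = 2 each). Because the ms35 arrays were low, the wild-type mean is at least 2.75-fold higher, counted against the low-signal limit. On the log2(signal + 2.23) scale the ms35 minus wild type difference was -2.54 ± 0.66 (SE) at bicellular, -2.50 ± 0.66 at PMII and -0.60 ± 0.66 at PMI, and -1.88 ± 0.38 averaged over the stages. At PMI the lines came close, with the highest ms35 array at 20.9 and the lowest wild-type array at 21.3. With signals under the limit set to it, an alternative chosen after seeing the data, the difference was -1.38 at bicellular and -0.14 at PMII. At PMII the size of the difference thus lay almost entirely below the limit. The ms35 PMII pair was 15.9-fold apart: the difference was -1.55 without replicate 2, the array with the signal of 0.499, and -3.45 without replicate 1. Without both arrays of highest GAPDH ratio it was -3.02 at bicellular and -2.33 at PMII.

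TBL26, the mannan acetyltransferase, was well above the low-signal limit on all 12 arrays. In ms35 its signal was 460 and 575 at PMI, 372 and 426 at bicellular and 725 and 568 at PMII. In wild type it was 348 and 322 at PMI, 163 and 355 at bicellular and 183 and 153 at PMII. The lowest ms35 array (372, bicellular replicate 1) stood just above the highest wild-type array (355, bicellular replicate 2), a ratio of 1.05. The wild-type bicellular pair was wide apart, with replicate 2 at 2.17 times replicate 1.

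The gap in TBL26 was widest at PMII, with a mean signal of 646 ± 111 for ms35 and 168 ± 21.2 for wild type (SD, n = 2 each), a ratio of 3.84. The mean was 1.55 times as high in ms35 at PMI and 1.54 times at bicellular. On the log2 scale the difference was 1.92 ± 0.30 (SE) at PMII, 0.62 ± 0.30 at PMI, 0.72 ± 0.30 at bicellular and 1.09 ± 0.17 on average. The bicellular value rested on the wild-type pair: it was 0.17 without wild type bicellular replicate 1 and 1.27 without replicate 2. Without both arrays of highest GAPDH ratio it was 0.62, and the PMII value 1.79.

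**Figure D1:**
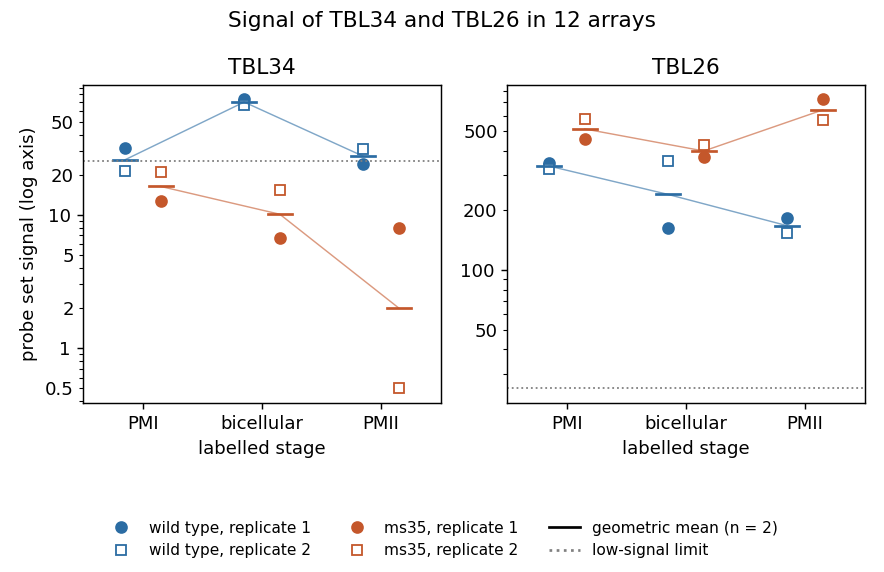
Probe set signal (log axis) of TBL34 (left) and TBL26 (right) against labelled stage, with each array as a point, short bars at the geometric mean of 2 arrays, lines joining the means of a line and a dotted line at the low-signal limit of 25.5. TBL34 peaks in the wild-type bicellular arrays (66.9 and 73.4) and is under the limit in all ms35 arrays, and TBL26 is higher in ms35 throughout, most at PMII.

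Across all 16464 tested probe sets, 0.996% had all 6 ms35 arrays below all 6 wild-type arrays, as TBL34 had, and 0.82% had them all above, as TBL26 had. With 2 arrays a group, single stages separate easily: 19.2%, 19.9% and 21.8% lay lower in ms35 without overlap at PMI, bicellular and PMII, and 26.1%, 20.8% and 19.1% higher. At all 3 stages together, 2.99% lay lower and 2.86% higher. These shares are the background of a pattern for which the pair was chosen, and nothing is read from them. Ranked among all probe sets of the same array, a measure that does not depend on scaling, TBL34 stood between the 36.9th and the 63.8th percentile in wild type and between the 0.765th and the 33.4th in ms35. TBL26 stood between the 80.7th and the 91.9th percentile in wild type and between the 92.3rd and the 96.3rd in ms35.

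Ordered by mean log2 signal, the groups of TBL34 ran from wild type bicellular through wild type PMII and wild type PMI to ms35 PMI, ms35 bicellular and ms35 PMII. The arrays of wild type PMII and PMI overlapped, as did those of ms35 PMI and bicellular, and of ms35 bicellular and PMII. The groups of TBL26 ran from ms35 PMII through ms35 PMI and ms35 bicellular to wild type PMI, wild type bicellular and wild type PMII. Here ms35 PMII and PMI overlapped, and each wild-type group overlapped with the next. The genes were thus ordered oppositely by line, but they did not mirror each other within a line: Pearson's r of their log2 signals was -0.06 over the 6 wild-type arrays and -0.15 over the 6 ms35 arrays, given as a description.

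Along the labelled stages, TBL34 in wild type differed by 1.36 ± 0.66 (SE, log2) from PMI to bicellular and by -1.28 ± 0.66 from bicellular to PMII. In ms35 the same steps were -0.58 ± 0.66 and -1.24 ± 0.66, all under the low-signal limit. TBL26 in wild type had -0.47 ± 0.30 and -0.52 ± 0.30, and in ms35 -0.37 ± 0.30 and 0.68 ± 0.30. Both wild-type steps of TBL26 rested on the wide bicellular pair: without wild type bicellular replicate 1 they were 0.084 and -1.07, and without replicate 2 they were -1.02 and 0.036. Markers of particular cell types also differed along the stages. The summed signal of 10 late pollen markers ran from 2428 to 2537 in wild type PMI, 515 to 782 in wild type bicellular and 359 to 402 in wild type PMII. In ms35 it ran from 1471 to 1747, from 774 to 1110 and from 306 to 499. It was thus lower in ms35 than in wild type at PMI, while at bicellular, the stage of the TBL34 peak, the ranges met only between 774 and 782 with ms35 mostly higher. Of the 10 single markers, 8 had a negative difference at PMI (median -0.58, against 0.06 over all tested probe sets) and 8 a positive one at bicellular (0.64 against 0.01).

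No late pollen marker was at 0, and between 0 and 4 of the 10 were under the low-signal limit on both arrays of a group. Of the 10, 6 fell from PMI to bicellular in wild type, beside 7.29% of all tested probe sets (limma, Benjamini-Hochberg). Among these 6, ANX1 exceeded the low-signal limit only at PMI, so the filter fixed the direction of its fall. PLIM2a exceeded the limit at PMI and otherwise only in wild type PMII replicate 2 (65.0), with 8.91 and 13.4 in wild type bicellular. It thus also met the filter through PMI, and the direction of its fall was fixed too. The marker lists were chosen with earlier results of these arrays known, so the counts of markers are a description. None of the 10 passed between the lines on average or at a single stage, with 2 on average at an unadjusted p under 0.05. Both named tapetum markers rose in the same wild-type step, beside 10.8% of all tested probe sets. SHT, under the low-signal limit in wild type PMI, was at least 59.7-fold higher at bicellular and made up nearly all of the summed signal there, 1210 to 2045, while AMS rose by 1.46 ± 0.41 on the log2 scale, to 47.6 and 51.5. The 3 photosynthesis markers summed to between 1172 and 1435 in wild type PMI and to between 3811 and 3835 in wild type PMII, and the carpel and perianth pair to between 46.9 and 111 over all arrays. The part of these shifts in the TBL34 and TBL26 values was not tested. In whole anthers, fewer cells of a type and less RNA per cell cannot be told apart.

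Among the other measured members of the TBL family no gene passed between the lines on average. The gene table holds 43 further TBL genes, of which 21 had a single-gene probe set and 15 were tested. None of the 15 passed the averaged genotype test, beside 5.27% of all tested probe sets by limma with Benjamini-Hochberg adjustment (2.24% rose in ms35 and 3.03% fell), and 2 had an unadjusted p under 0.05. Their median difference was 0.16 on the log2 scale against 0.02 over all tested probe sets, with 12 positive and 3 negative. At PMI and PMII none passed either, beside 2.03% and 0.948% of all, with 0 and 1 at an unadjusted p under 0.05. At bicellular 1 of 15 passed and was lower in ms35, beside 1.77% of all in either direction and 1.37% lower.

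That gene was TBL45, which fell by 1.69 ± 0.35 (SE, log2) in ms35 at the bicellular stage (limma adjusted p = 0.0281). Its signal there was 144 and 175 in wild type and 38.7 and 58.9 in ms35, with no overlap. In wild type TBL45 rose by 1.40 ± 0.35 from PMI to bicellular (limma adjusted p = 0.016), so that it had its highest wild-type signal at the stage where TBL34 had its own. The genotype call was lost on leaving out replicate 1 (adjusted p = 0.109) or 2 (0.256) of the wild-type bicellular arrays, ms35 bicellular replicate 1 (0.141), the arrays of highest GAPDH ratio (0.0646) or the variance trend (0.0778), and the lowest value over the alternatives was 0.0156.

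TBL35, the nearest relative of TBL34 in function, did not pass in any of these comparisons. Its signal in wild type was 27.0 and 37.8 at PMI, 30.2 and 48.3 at bicellular and 62.1 and 60.4 at PMII. In ms35 it was 43.0 and 31.7, 47.6 and 49.6, and 32.3 and 66.1. The arrays of the lines overlapped at each stage. Its averaged difference was 0.05 ± 0.22, with a 95% interval from -0.44 to 0.54, and at bicellular 0.33 ± 0.39, from -0.52 to 1.17. Of the other xylan acetyltransferases of the family, TBL30 had 0.28 ± 0.60 on average, and TBL28 and TBL32 were too low to be tested.

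TBL23 and TBL25, which share the mannan acetyltransferase role with TBL26, also did not pass. TBL23 lay between 43.0 and 97.0 in wild type and between 67.9 and 100.2 in ms35, and TBL25 between 59.2 and 133 and between 76.2 and 126. Both genes overlapped widely between the lines. Their averaged differences were 0.20 ± 0.21 (95% interval -0.25 to 0.66) and 0.16 ± 0.20 (-0.27 to 0.60). At PMII, where the gap in TBL26 was widest, TBL23 had 0.16 ± 0.36 and TBL25 -0.16 ± 0.35.

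**Figure D2:**
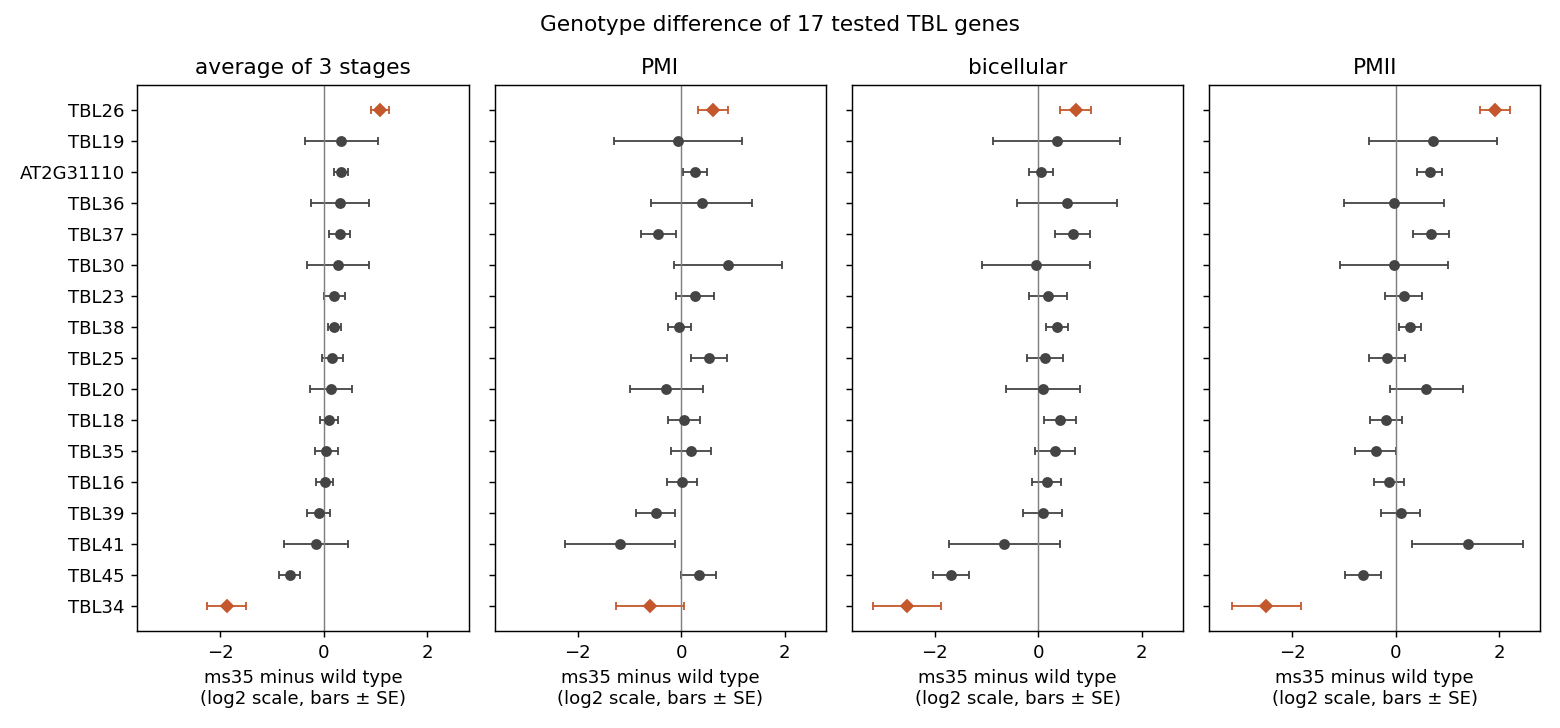
Difference between ms35 and wild type (log2 scale, horizontal axis, bars ± SE) for the 17 tested TBL genes, averaged over the stages and at each stage, with TBL34 and TBL26 as diamonds. TBL34 (-1.88) and TBL26 (1.09) lie at the ends of the averaged differences, as the genes chosen for them, and TBL45 (-1.69) stands apart from the rest at bicellular.

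From PMI to bicellular in wild type, 4 of the 15 other TBL genes passed, 1 higher and 3 lower, beside 10.8% and 7.29% of all tested probe sets. Besides the rise in TBL45, TBL37 fell by 1.10 ± 0.34 (limma adjusted p = 0.0414) and TBL38, an acetylesterase of pectin in seed mucilage, by 0.86 ± 0.21 (0.0168). TBL20 was at least 3.60-fold lower at bicellular, where both wild-type arrays were under the low-signal limit. Only its PMI arrays exceeded that limit, so the filter fixed the direction of this step. No p is therefore given for TBL20, and its place among the 3 lower genes is a description. The summed late pollen signal fell in the same step, as given above, and its part was not tested. Leaving out single arrays, this wild-type step ran from -3.06 to -2.26 for TBL20 and from -1.34 to -0.87 for TBL37. TBL20 and TBL37 lost the call without any 1 of the 4 wild-type arrays of these stages. TBL37 also lost the call without any 1 of the ms35 PMI and PMII arrays. TBL38 lost it without wild type PMI replicate 1 (0.0652), its replicate 2 (0.0862) or wild type bicellular replicate 1 (0.126), and TBL45 without replicate 1 of wild type PMI (0.132) or replicate 2 of wild type bicellular (0.119). In ms35 none of the 15 passed in this step, with 2 at an unadjusted p under 0.05, and 2.64% of all tested probe sets were called. From bicellular to PMII none passed in either line, beside 1.55% of all in wild type and 0.413% in ms35. The interaction of genotype and stage passed for none, with 1 at an unadjusted p under 0.05, beside 0.194% of all.

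Of the list of 21 genes that build and decorate the xylan backbone, 4 were named and tested. All 4 had their highest mean wild-type signal at bicellular, as TBL34 had. IRX15-L and IRX15, which act in xylan synthesis, were under the low-signal limit on all ms35 arrays, at no more than 18.2 and 6.31. At bicellular, wild type was at least 16.3-fold higher for IRX15-L and at least 3.73-fold higher for IRX15, counted against that limit. Both genes entered the test through their wild-type arrays alone, as TBL34 did, so no p is given for their difference. GUT2, a xylan xylosyltransferase also called IRX10, was lower in ms35 by 2.08 ± 0.43 at bicellular, and its homologue GUT1 had -0.16 ± 0.12 on average. In limma 2 of the 4 were called lower on average (IRX15-L and IRX15), beside 3.03% of all tested probe sets, and 2 at bicellular (IRX15-L and GUT2), beside 1.37%. The averaged call of IRX15 was lost under 5 of 22 alternatives, over which its difference ran from -3.08 to -0.71. At PMI and PMII none of the 4 passed, with 2 and 1 at an unadjusted p under 0.05. These counts are a description: the decreases were known when the list was made, so no p is given for GUT2 either. The filter also fixed the direction for IRX15-L and IRX15.

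In wild type IRX15-L was 113 and 101 at PMI, 392 and 440 at bicellular and 94.6 and 64.3 at PMII. GUT2 was 58.8 and 34.9, 123 and 206, and 36.3 and 56.2. In both genes, as in TBL34, the bicellular arrays lay above those of the other stages. Of these steps the rise in GUT2 from PMI was called (1.76 ± 0.43), and the call was lost without replicate 2 of wild type PMI or of wild type bicellular. The list was chosen with earlier results of these arrays known, so this rise is a description. GUT1 was 143.2 and 196.4 at bicellular in wild type, against 142.7 on the highest other wild-type array. In ms35 GUT1 was 138.0 and 153.5 at bicellular, against 130.5 on the highest other ms35 array, so its bicellular arrays lay highest in both lines. Over the 6 wild-type arrays Pearson's r with TBL34 on the log2 scale was 0.95 for GUT2, 0.91 for IRX15-L, 0.71 for IRX15, 0.70 for GUT1 and 0.65 for TBL45, against -0.26 for TBL35. Among the other tested TBL genes this r ran from -0.63 for TBL37 to 0.65 for TBL45. It was 0.64 for TBL19, which was low on all wild-type arrays, and 0.59 for AT2G31110. These values of r are descriptions over 3 stages of 2 arrays each, with shared arrays and no background over all probe sets beside them. GUT2 lost its genotype call at bicellular without replicate 1 or 2 of the wild-type bicellular arrays or ms35 bicellular replicate 1. Leaving out single arrays, its difference there ran from -2.62 to -1.54.

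**Figure D3:**
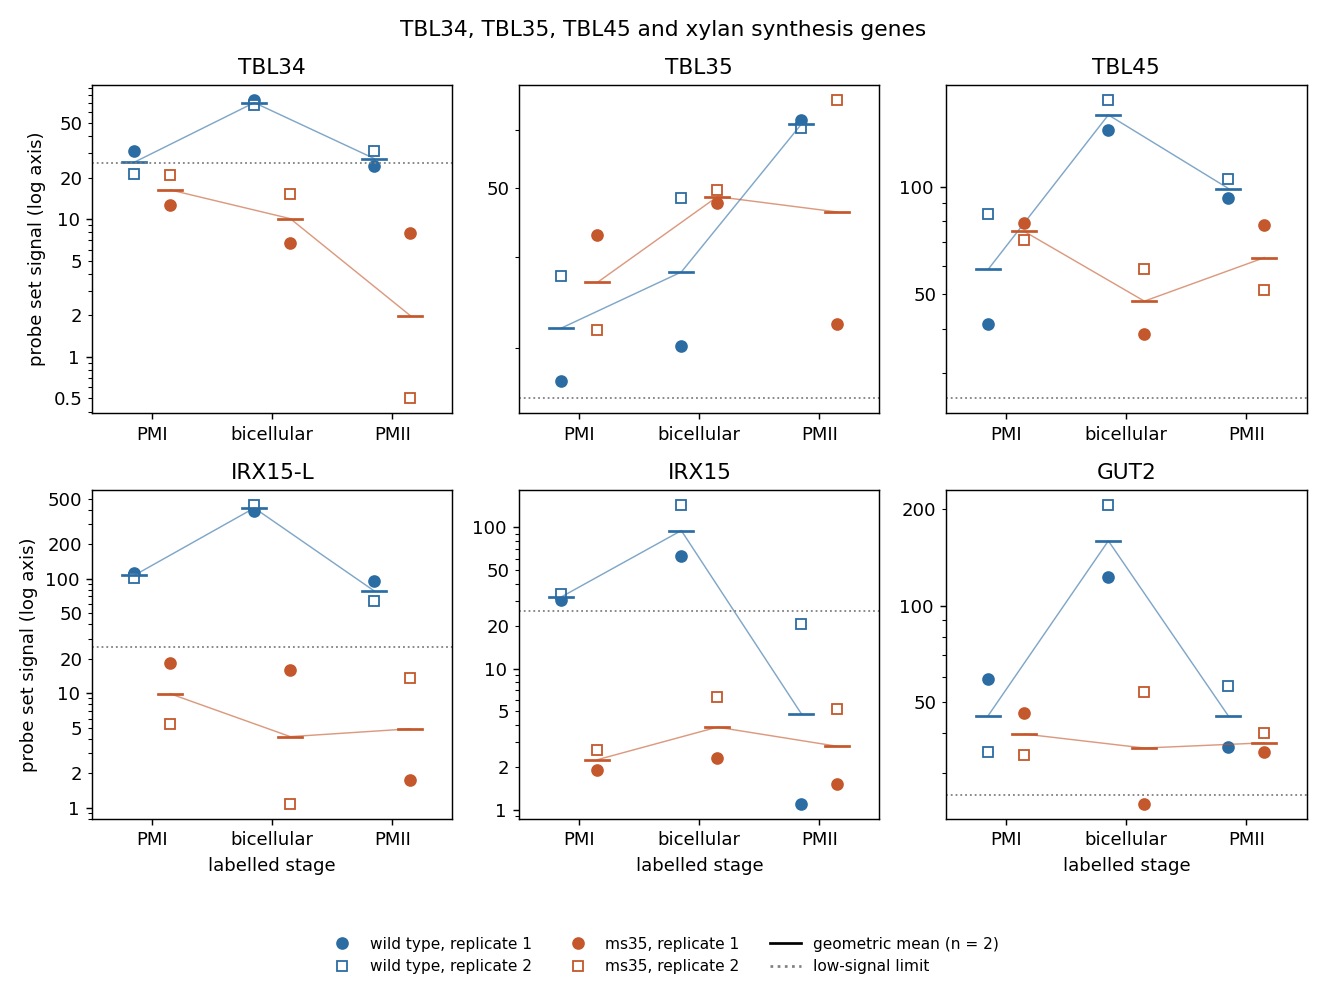
Probe set signal (log axis) against labelled stage for TBL34, TBL35, TBL45 and the xylan synthesis genes IRX15-L, IRX15 and GUT2, with arrays as points, bars and joining lines at the geometric mean of 2 arrays and the low-signal limit dotted. In wild type all but TBL35 have both bicellular arrays above the arrays of the other stages, and in ms35 none of these 5 does. The xylan synthesis gene GUT1, also tested but not drawn, has both bicellular arrays above the other stages in wild type and in ms35.

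Of 12 genes of glucomannan synthesis, the polymer on which TBL26 is known to act, 2 were named and 1 was tested. CSLA01, of the family of glucomannan synthases, had 0.23 ± 0.18 between the lines on average and 0.47 ± 0.30 at PMII, and did not pass (limma adjusted p = 0.555 on average). In wild type it fell by 1.54 ± 0.30 from PMI to bicellular (limma adjusted p = 0.00569, and 0.0598 without wild type PMI replicate 2), a step in which TBL26 had -0.47 ± 0.30. In both genes the mean signal in wild type was highest at PMI and lowest at PMII, and their courses were not tested against each other. CSLA03 was under the low-signal limit on all arrays.

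**Figure D4:**
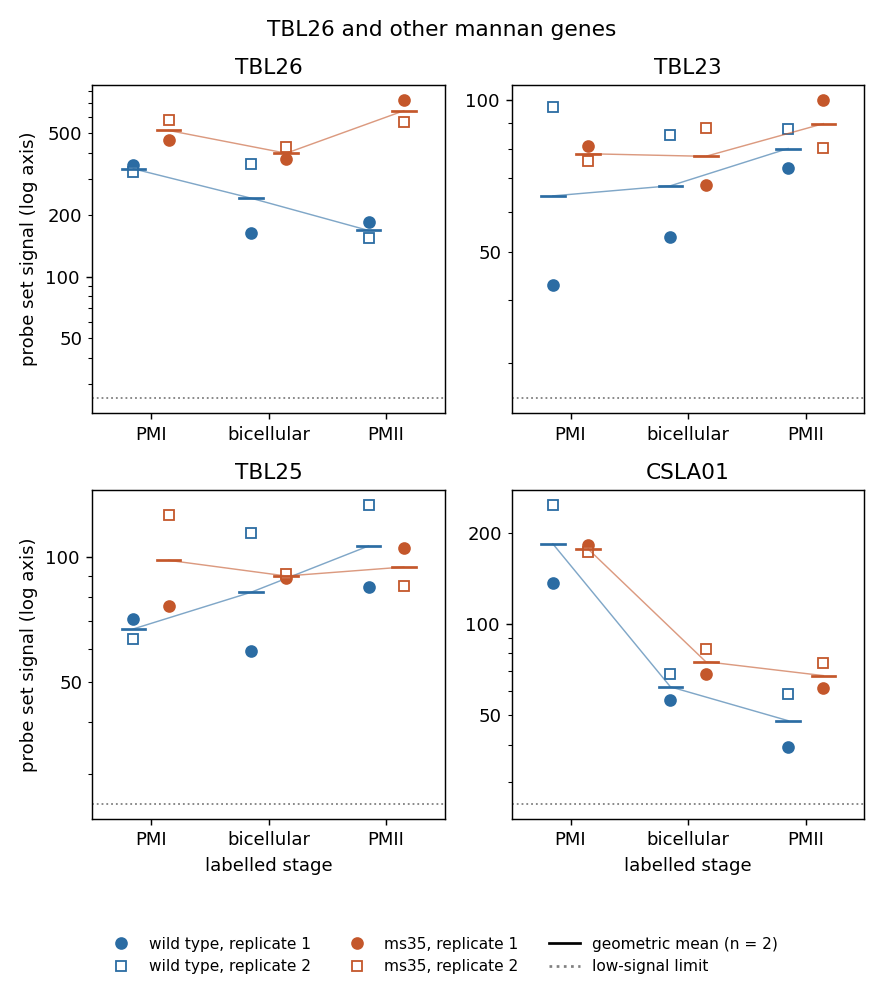
Probe set signal (log axis) against labelled stage for TBL26, the mannan acetyltransferases TBL23 and TBL25, and CSLA01, drawn as in the plot of TBL34 and TBL26. TBL26 is separated by line at each stage. TBL23 overlaps between the lines at each stage, and TBL25 overlaps at bicellular and PMII but is higher in ms35 without overlap at PMI.

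Among 13 genes of xyloglucan synthesis, another hemicellulose that TBL proteins acetylate, 5 were tested and none passed between the lines on average, beside 5.27% of all tested probe sets, with 1 at an unadjusted p under 0.05. That gene, CSLC04, had 0.69 ± 0.22 (limma adjusted p = 0.109). CSLC12 fell by 2.71 ± 0.49 from PMI to bicellular in wild type (limma adjusted p = 0.00345). Of 17 lignin genes only HCT was tested, and it was lower by 1.81 ± 0.14 in ms35 on average. The list was chosen with earlier results of these arrays known, so this value is a description. Of 27 secondary wall regulators only the zinc finger gene AT1G66810 was tested. Its ms35 arrays were under the low-signal limit but for PMI replicate 1. Like IRX15-L and IRX15, it thus entered the test through wild type and is given no p. At bicellular, wild type was at least 15.9-fold higher. Over the 6 wild-type arrays r with TBL34 was 0.91 for AT1G66810 and 0.24 for HCT. Genes of wall acetylation outside the TBL family, pectin acetylesterases and secondary wall cellulose synthases had no named probe set and were not analysed here.

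The 5 genes most like TBL34 over the 12 arrays, by Pearson's r of the log2 signal among 9199 single-gene probe sets, were AT5G14550 (0.95), AT1G03920 (0.92), AT3G60520 (0.92), AT1G74770 (0.91) and AT1G29200 (0.90). The first of these, AT5G14550, ran from 59.5 to 249 in wild type and from 18.1 to 85.3 in ms35. For TBL26 they were AT1G19970, AT3G04550, AT3G23900 and AT5G15640 (0.90 each) and AT3G05500 (0.87). Of these, AT3G05500 had the widest gap between the lines, from 400 to 639 in wild type and from 728 to 967 in ms35. Likeness over these arrays includes the difference between the lines itself.

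The neighbouring loci of both genes are given as a description. Of the 20 nearest tested loci of TBL34 by locus number, 10 on each side, 2 passed the averaged genotype test, both lower in ms35 (AT2G38090 and PRA1.B4). Of the 20 nearest to TBL26, 1 passed, GT72B1, also lower, while TBL26 itself was higher. Over all named nuclear loci the share called was 4.85% of 8998. Counts over 20 loci are too few to set apart from this share, and nothing is read from them.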

How the data were processed

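RNA of anthers with filaments was measured on 12 ATH1 arrays in 6 groups of 2. The authors deposited 1 intensity per probe set, not log-transformed, made with MAS5 and GCOS per the submitters' processing notes, with versions not given in the sources used here. Trimmed by 2% at each end, every array's mean was 100.01, the mark of global scaling; medians ran from 37.3 to 45.2. Log2(signal + 2.23) was taken, the pseudocount being the 10th percentile, which shrinks differences of dim genes. Probe sets with at least 2 arrays above 25.5 were tested (16464). Limma 3.58.1 in R 4.3.3 was fitted to 6 group means over all arrays, with a variance trend on mean signal, Benjamini-Hochberg adjustment and a threshold of 0.05, on 6 residual degrees of freedom, and was tested on simulated data. Genes were named through the series' probe annotation and the gene table of assembly TAIR10.1, by gene identifier (13436 of 13513 matched). Where a gene had several probe sets, the brightest stood for it.

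The members, the 12 gene lists and the TBL family list were chosen with earlier results of these data known. The naming rule took both members, the TBL family, up to 4 called genes per list, and the 5 genes of highest correlation with each member. The averaged genotype effect, the effect at each stage, the stage steps and the interaction were fitted. The alternatives were median centring and quantile normalization, other filters and pseudocounts, a block for the replicate number, no variance trend, and leaving out arrays.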

Additional observations from a re-analysis of the deposited data

Results flagged for a closer look

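In TBL45, the step from PMI to bicellular went in opposite directions in the 2 lines without overlap of the arrays: the difference was 1.40 on the log2 scale in wild type and -0.62 in ms35. The difference between these steps was -2.02 ± 0.49 (SE) and did not pass (limma adjusted p = 0.198, with 16 probe sets called in this contrast over all genes).

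In TBL37, both ms35 arrays lay below wild type at labelled PMI and above it at bicellular and PMII. Between the lines the log2 difference of -0.44 at PMI stood against 0.66 at bicellular and 0.69 at PMII. The change from PMI to bicellular, 1.10 ± 0.48 (SE), did not pass (limma adjusted p = 0.543), nor did the interaction over all stages (limma adjusted p = 0.632), which is the one test that covers PMI against PMII. Groups of 2 arrays often fail to overlap: at PMI 19.2% of all tested probe sets lay lower in ms35 without overlap and 26.1% higher. With 2 arrays a group, single arrays far from the rest of their group were not looked for.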

How the results depend on the processing

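Of the 22 alternatives, 2 were added after seeing the data. The log2 differences of TBL26 between the lines stayed positive and those of TBL34 negative under all 22 alternatives, at each stage and on average. The size for TBL34 depended on how low signal was treated. With signal floored at the low-signal limit, 1 of those added, it was -0.55 on average, -1.38 at bicellular and -0.14 at PMII, and the ms35 step from bicellular to PMII was 0. A larger pseudocount gave -1.38 at PMII and -0.54 for that step, and no pseudocount -3.79 and -2.34. Leaving out single arrays, the range for TBL34 was -2.19 to -1.56 on average, -3.45 to -1.55 at PMII and -2.19 to -0.29 for that step; for TBL26 it was 0.17 to 1.27 at bicellular, -1.02 to 0.084 for the wild-type step from PMI to bicellular and -1.07 to 0.036 for the next.

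Counts of called probe sets moved more. Leaving out single arrays, they ran from 588 to 837 for the averaged effect (868 with all arrays), 127 to 359 at PMI (335), 97 to 284 at bicellular (291), 45 to 178 at PMII (156), 1056 to 3159 and 21 to 390 for the wild-type steps (2977 and 256), 33 to 818 and 0 to 579 for the ms35 steps (434 and 68) and 6 to 56 for the interaction (32). Without the variance trend (limma) they were 179 at PMI, 57 at PMII, 60 for the wild-type step to PMII, 111 and 17 for the ms35 steps and 0 for the interaction. Without both arrays of highest GAPDH ratio they were 59 at PMII, 101 for the wild-type step to PMII, 878 and 0 for the ms35 steps and 17 for the interaction. With floored signal they were 413 for the wild-type step to PMII and 116 for the interaction, and with median centring 15 for the interaction. A larger pseudocount gave 195 for the second ms35 step and 58 for the interaction; for that step no pseudocount gave 1, no filter 37 and a stricter filter 39. Among the other TBL genes, between 0 and 1 were called on average, the latter without wild type PMI replicate 1. GUT2 lost its call at bicellular without the variance trend. TBL37 had a limma adjusted p of 0.0865 without a filter and TBL38 one of 0.0532 without the variance trend. TBL20 lost its call without a pseudocount. The cause of these shifts was not tested.

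The replicate numbers are shared between groups, but the labels do not say that they pair arrays: deviations of same-numbered arrays correlated between groups with r from -0.13 to 0.18, over 0.1 in 4 of 15 pairs of groups. The replicate block gave 653 and 181 calls for the ms35 steps.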

Other observations

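Of the 6 TBL genes with a probe set that were too low to be tested, TBL21 had the lowest maximum, 3.86 over the 12 arrays. TBL42, TBL43 and TBL15 reached 20.8, 20.5 and 22.1, all under the low-signal limit. The xylan acetyltransferases TBL28 and TBL32 exceeded the limit on 1 array each, at 28.1 in ms35 PMI replicate 2 and 39.1 in wild type PMII replicate 2; the latter array had the highest GAPDH ratio, 2.86, and its part in that value was not tested. The second probe set of AT2G31110, the gene listed as TBL40, had 0.27 ± 0.29 between the lines, beside 0.33 ± 0.14 for the brighter one.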
